A study of Bos indicus with 11 samples.

Results

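The genes described are the chemokines, the interleukins and their receptors, taken as every gene whose symbol starts with CCL, CXCL, CCR, CXCR or IL followed by a digit. Of the 24616 genes listed, 123 carried such a symbol, and 70 of these reached a mean normalized count of 5 over the 11 cows, as did 15081 genes in all. The lowest members above that minimum were CCR10 (5.39) and CCL4 (5.62), and the highest below it were IL21R (4.71), IL8 (4.56) and CCL3 (4.50). RNA-Seq was made from endometrial biopsies of healthy, adult, multiparous Nelore cows (Bos indicus). All cows of both groups had been synchronized with a prostaglandin analogue and artificially inseminated, and were biopsied on day 6 after AI in the uterine horn opposite the corpus luteum. By ultrasonography on day 30, 6 of the cows were pregnant (P) and 5 were not (NP), so that the outcome was known only after the biopsy had been taken. Each cow was 1 replicate, and the cows had been chosen for similar plasma progesterone at biopsy. The comparison asks whether transcript levels around the arrival of the embryo differed between cows that later were and were not pregnant. No cow without AI and no second biopsy of the same cow was included.

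Chemokines are small secreted proteins that direct the migration of leukocytes through receptors coupled to G proteins, and their names follow the spacing of the first cysteines (CC or CXC). Interleukins are cytokines that signal between leukocytes and epithelial, stromal and endothelial cells, many of them through receptor chains shared by several ligands. In the endometrium they are known for recruiting and positioning macrophages, T cells, natural killer cells and neutrophils during the cycle and in early pregnancy, and some of them act on the epithelium and the conceptus directly. In a bulk biopsy, fewer cells of a type and less RNA per cell cannot be told apart.

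Between 9290949 and 13569085 reads were counted on genes per cow. The biopsies differed in their cellular make-up. The summed normalized count of 7 smooth muscle markers ranged from 48906 to 420980 in P cows (median 107916) and from 24059 to 170208 in NP cows (median 31781), with the highest sums in P617 (420980), P1541 (302358) and NP638. Of the 7, DES and MYH11 were higher in P at an unadjusted p-value under 0.05. Epithelial markers, present in every cow, summed to 3107 in P617 and to at least 10901 in the other cows. Of 27 leukocyte markers tested, 8 were higher in NP and 0 higher in P at an unadjusted p-value under 0.05, and their sum over the 30 listed ranged from 1404 to 3088 in P cows (median 1924) and from 1966 to 3567 in NP cows (median 2534). None of the leukocyte, epithelial or smooth muscle markers in the table was at 0 in all cows. P617 was kept as P, as its label says, although a supplement of the study names it as NP. It was the highest of the 11 cows in 17 of the 70 members and the lowest in 18, which is 24.3% and 25.7% of the members beside 26.0% and 27.1% of all genes tested.

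At an unadjusted threshold, named chemokines differed between the groups in both directions, and the interleukin receptors that passed were higher in NP. With limma on the log2(normalized count + 1) scale, 11 of the 70 members had an unadjusted p-value under 0.05, beside 7.84% of all genes tested. Of these, 9 were higher in NP (12.9% of the members, 5.49% of all genes) and 2 were higher in P (2.35% of all genes). The 9 were the chemokines CXCL3, CXCL13, CXCL16, CCL5 and CCL14, the chemokine receptor CXCR6, the interleukin receptor chains IL7R and IL2RA, and the interleukin subunit IL12A. The 2 higher in P were CXCL17 and CCL21. The minimum mean bears on this split, since CXCL13, IL7R, IL2RA and IL12A had a mean under 5 in P and reached the minimum through the NP cows, while IL1R2, with a mean of 6.83 in P and 1.08 in NP, fell below it. With a mean of at least 20, 7 of 47 members had an unadjusted p-value under 0.05 (7.73% of all genes), 5 of them higher in NP and 2 higher in P. With no minimum, 14 of 109 did (7.12% of all genes), 11 of them higher in NP. Passing below means an unadjusted limma p-value under 0.05, and for members that did not pass the two-sided exact permutation p-value of the difference in mean log2 is given. After the Benjamini-Hochberg adjustment over all genes tested, 0 members had an adjusted p-value under 0.1 in limma (0% of all genes) and 0 in edgeR. DESeq2 on the recovered reads called 1 member, CXCL3, beside 1.33% of all genes. The log2 fold change, given as NP over P throughout, was above 0 in 45 of the 70 members (50.2% of all genes), and its median was 0.19 over the members and 0.0018 over all genes.

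**Figure D1:**
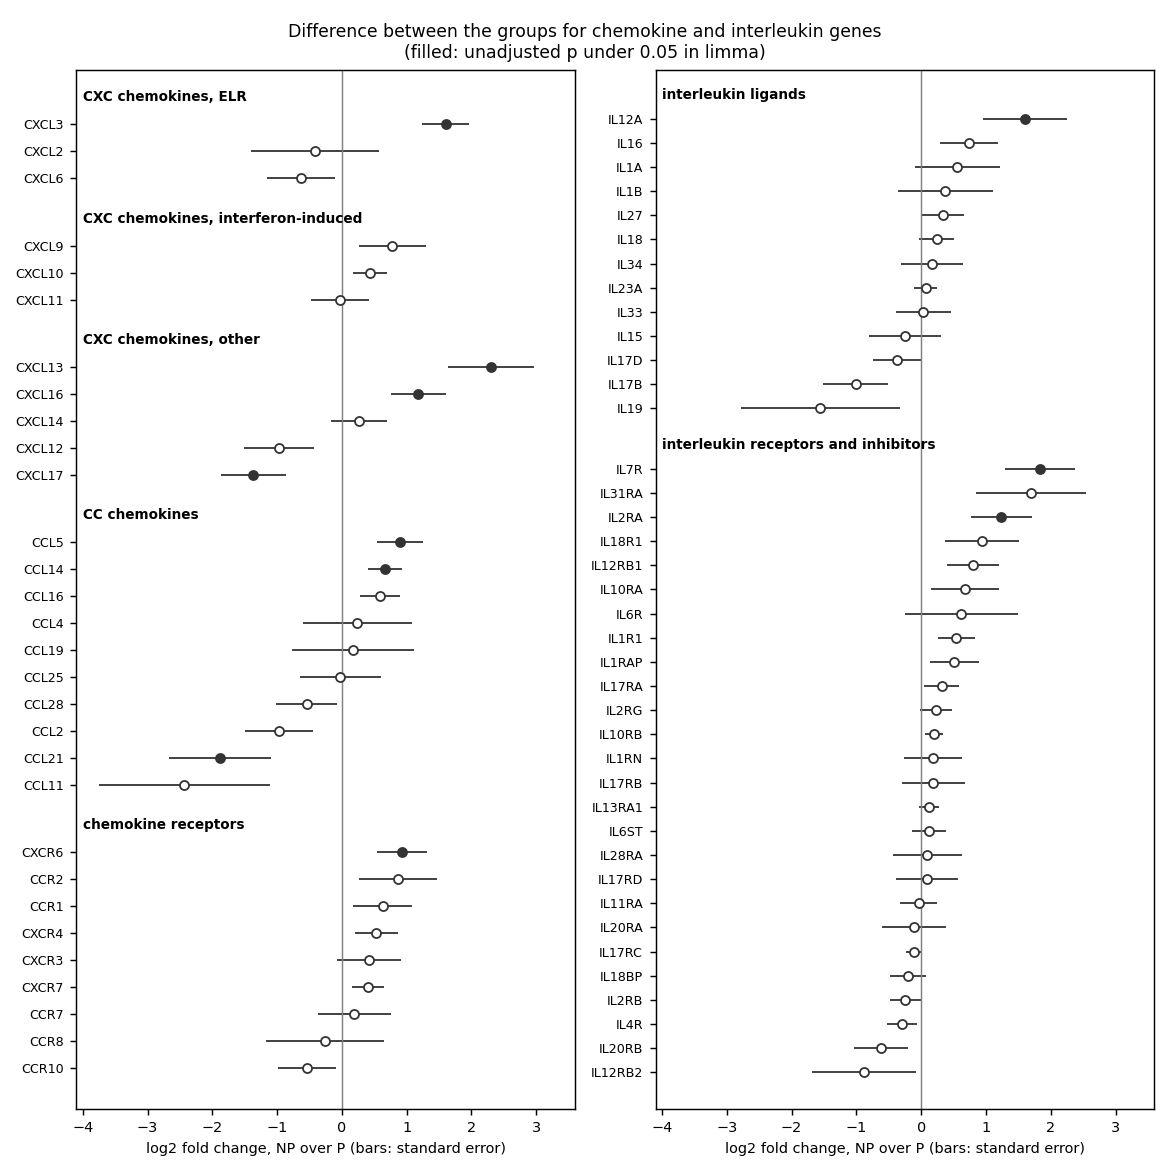
Log2 fold change of the members reported here, NP over P, grouped by role, with the standard error as a horizontal bar and filled points where the unadjusted p-value was under 0.05. The filled points lie to the right of 0 for 9 members and to the left for CXCL17 and CCL21, and the widest error belongs to CCL11 at -2.43.

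Several of these counts rest on few cows. Without P904, the P cow with the highest leukocyte marker sum, 17 members had an unadjusted p-value under 0.05, 14 of them higher in NP, beside 10.3% of all genes. P904 was also the P cow with the highest macrophage and endothelial marker sums and the lowest smooth muscle marker sum. Without NP2810, the NP cow with the highest leukocyte marker sum, 6 members had an unadjusted p-value under 0.05, beside 7.56% of all genes. Without P617 and P1541, the 2 cows richest in smooth muscle, the count was 10, with 8 higher in NP, beside 11.1% of all genes in either direction and 7.14% with NP higher. Of the 11 members above, 5 then still passed, and CCL5, CCL14, CCL21, CXCL16, CXCR6 and IL2RA did not. When the leukocyte score, the mean log2 level of the leukocyte markers in each cow, was added to the fit as a covariate, CXCL3, CXCL13 and IL7R remained of the 11 members and no other member was added (3 of 70, beside 2.71% of all genes). With the smooth muscle score as a covariate the same 3 remained and CCL16, IL13RA1 and IL17RD were added (6 of 70, beside 6.17% of all genes).

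**Figure D2:**
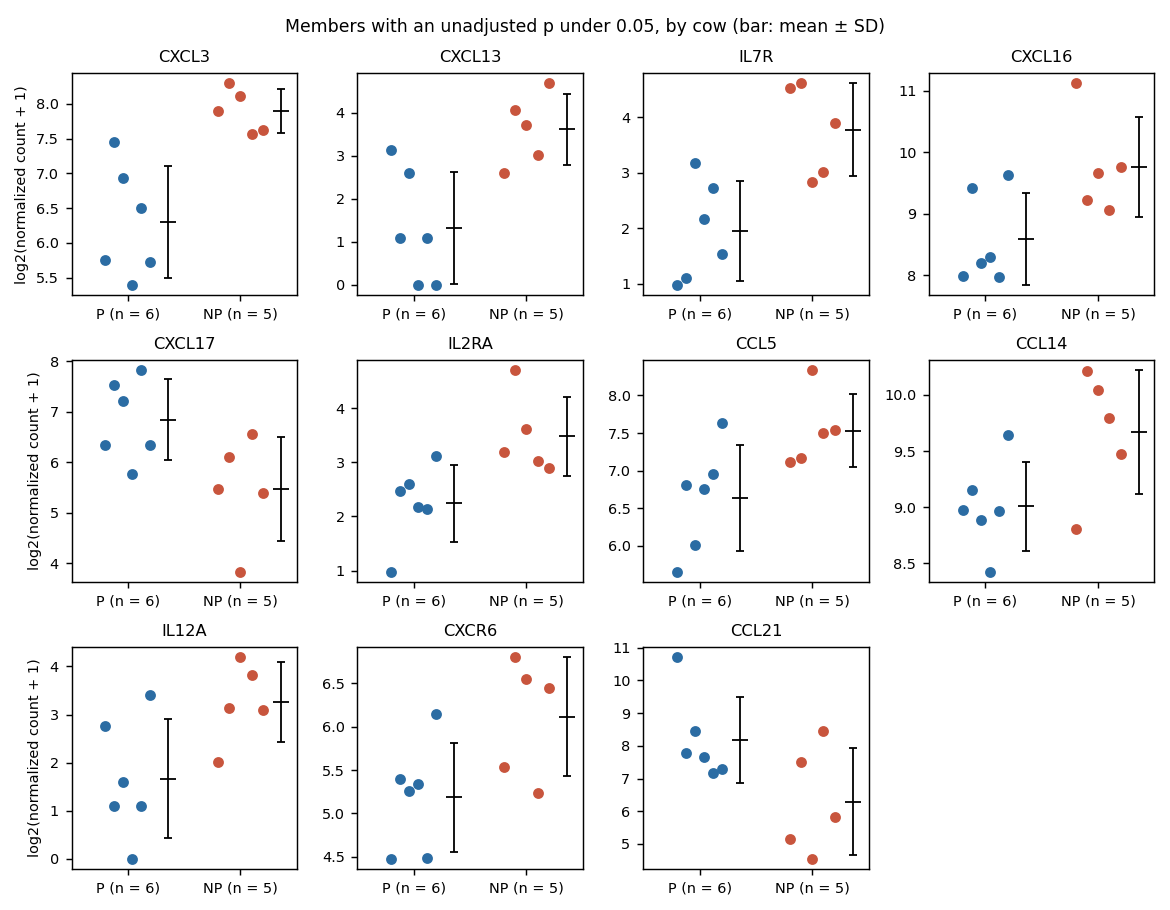
Level of the 11 members with an unadjusted p-value under 0.05, as log2(normalized count + 1), with 1 point per cow, P cows in blue and NP cows in red, and the mean ± SD beside each group. The points of the groups are apart only for CXCL3, where the lowest NP cow (188 normalized counts) lies above the highest P cow (175).

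The ELR chemokines of the CXC family attract neutrophils through CXCR1 and CXCR2. Of the 4 genes of this kind, 3 were members, and CXCL3 (ENSBTAG00000037778) was higher in NP. Its normalized count was lowest in P2396 (41.1), with a median of 71.2 and a highest value of 175 (P1631) in the P cows. The NP cows had 313 (NP2541), 275 (NP2810), 237 (NP238), 196 (NP856) and 188 (NP638). All NP cows were above all P cows, which 1.09% of all genes showed in either direction and 0.855% with NP higher, and CXCL3 was the only such member. The means were 242 ± 53.0 (SD, n = 5) in NP and 88.6 ± 51.7 (SD, n = 6) in P. This gave a log2 fold change of 1.60 with a standard error of 0.36 (limma, unadjusted p = 0.000824, adjusted p = 0.264). Exact permutation of the group labels, two-sided, gave p = 0.00433, where 0.00216 is the smallest value that 6 against 5 cows allow, and the DESeq2 adjusted p-value was 0.0234. Leaving out each cow in turn moved the log2 fold change between 1.42 and 1.83 with the p-value under 0.05 each time, and it was 1.83 with the leukocyte covariate, again under the threshold. The study made its own calls on these same cows, so the direction of CXCL3 here is not independent evidence.

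The other ELR chemokines followed a different order of cows. CXCL6 was lowest at 22.8 in P2396, had a median of 57.8 and reached 280.2 in P617, while the NP cows lay between 33.3 and 73.7. The highest value was over 3 times that of any other cow, and the groups overlapped (log2 fold change -0.64, exact p = 0.325). CXCL2 was at 37.3 in P617 and 25.4 in NP638 and at most 14.9 in the other cows, with no read in P2396 (log2 fold change -0.41, exact p = 0.706). IL8, which stayed below the minimum mean, had 38.4 normalized counts in P617 and at most 4.57 in any other cow. The neutrophil genes S100A8, S100A9 and S100A12 were likewise highest in P617 (304, 154 and 525) and next in NP638 (116, 107 and 318). The other neutrophil genes tested followed another order. CSF3R was highest in NP2541 (22.0) and FCGR3A in NP2810 (187), with 13.6 and 46.3 in P617. Over the neutrophil list 5 of 8 genes were tested, 1 (FCGR3A) was higher in NP and 0 were higher in P, and the sum ranged from 106 to 1047 in P cows and from 164 to 689.9 in NP cows. For CXCL3 the cows P617 and NP638 were not the highest of their groups. The receptor gene CXCR2 was listed in 2 rows, each with a mean under 5. CXCL2 and CXCL3 are paralogs, and how reads were divided between them, or between the 2 rows of CXCR2, was not examined.

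**Figure D3:**
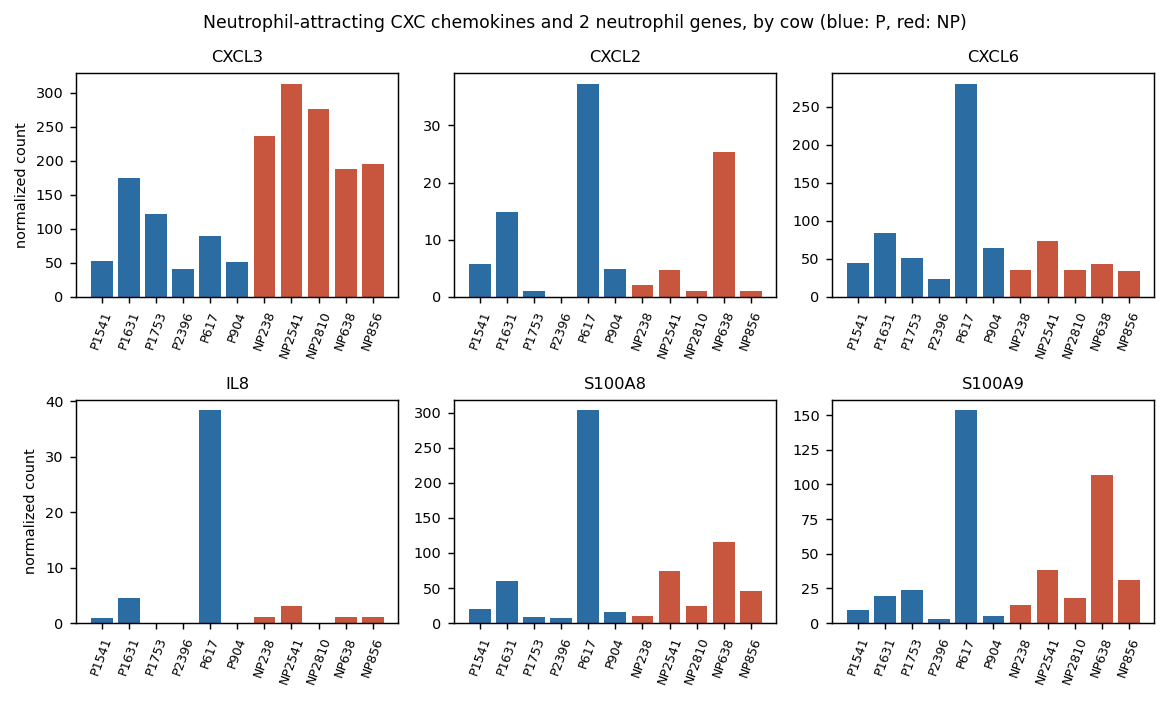
Normalized count in each of the 11 cows (P in blue, NP in red) for CXCL3, CXCL2, CXCL6 and IL8 and for the neutrophil genes S100A8 and S100A9, on linear axes that start at 0. P617 carries the highest bar for CXCL2, CXCL6, IL8, S100A8 and S100A9, whereas for CXCL3 the 5 NP bars (188 to 313) stand above the 6 P bars (41.1 to 175). The neutrophil genes CSF3R and FCGR3A, which are not drawn, were highest in NP cows.

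CXCL9, CXCL10 and CXCL11 are induced by interferons and attract activated T cells and natural killer cells through CXCR3. All 3 were members and none passed the unadjusted threshold. CXCL10 ranged from 58.2 to 146 in P cows (median 65.3) and from 75.9 to 134 in NP cows (median 96.8), with a log2 fold change of 0.43 ± 0.27 (SE, exact p = 0.128). CXCL9 ranged from 16.9 to 109 in P cows and from 32.4 to 99.6 in NP cows (log2 fold change 0.78, exact p = 0.197), and CXCL11 did not differ beyond the spread among cows (log2 fold change -0.03, exact p = 0.957). The highest cow for all 3 was P904, the P cow with the highest leukocyte and endothelial marker sums and the lowest smooth muscle marker sum. Without it both CXCL10 and CXCL9 came under the threshold, with log2 fold changes of 0.62 and 1.11. Their receptor CXCR3 lay between 1.14 and 9.04 in P cows and between 4.05 and 9.68 in NP cows (log2 fold change 0.42, exact p = 0.39).

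The remaining CXC chemokines were grouped only because they were placed in neither class above. Of these, 3 of 5 passed the unadjusted threshold (60%, beside 7.84% of all genes tested), 2 higher in NP and 1 higher in P. CXCL13 (ENSBTAG00000008479) guides B cells and follicular T cells into lymphoid aggregates. It had 0 normalized counts in P904 and P2396, 1.13 in P617, 1.14 in P1631, 5.03 in P1753 and 7.74 in P1541. The NP cows had 24.7 (NP856), 15.7 (NP2541), 12.2 (NP2810), 7.10 (NP638) and 5.06 (NP238). The groups overlapped through P1541, which was above NP238 and NP638. The means were 2.51 ± 3.17 (SD, n = 6) in P and 12.96 ± 7.80 (SD, n = 5) in NP, with a log2 fold change of 2.30 ± 0.67 (SE, limma, p = 0.00506, adjusted p = 0.364; exact permutation p = 0.0173). Leaving out any 1 cow kept the limma p-value under 0.05, with log2 fold changes from 2.03 to 2.66. A mean under 5 in P shows that CXCL13 reached the minimum mean through the NP cows, as did IL7R, IL2RA and IL12A below, so that a difference in these 4 was favoured by the filter. The CXCL13 receptor gene CXCR5 had at most 3 reads in every cow, and of the B cell and plasma cell markers tested 0 of 3 passed in either direction.

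CXCL16 (ENSBTAG00000031998) is made as a membrane protein that binds oxidized lipids and is shed as a ligand for CXCR6, a receptor of activated T cells and natural killer T cells. Both genes of the pair were higher in NP. CXCL16 was lowest at 249 (P617), had a median of 304 and was highest at 793 (P904) in the P cows. The NP cows had 2231 (NP238), 863 (NP856), 813 (NP2810), 599 (NP2541) and 531 (NP638). NP238 was 2.59 times the next cow and P904 and P1631 lay within the NP range. CXCL16 had a log2 fold change of 1.18 ± 0.42 (SE, limma, unadjusted p = 0.0162, adjusted p = 0.487; exact permutation p = 0.0346). Without NP238 it was 0.84, still under the threshold. CXCR6 (ENSBTAG00000015708) was 21.3 in P1541, had a median of 38.3 and reached 69.9 in P904, and in the NP cows was 111 (NP2541), 92.8 (NP2810), 86.0 (NP856), 45.5 (NP238) and 36.5 (NP638). The groups overlapped, since NP238 and NP638 lay within the P range. Its log2 fold change was 0.93 ± 0.39 (SE, unadjusted p = 0.0338, adjusted p = 0.579; exact permutation p = 0.0411). It ranged from 0.76 to 1.15 when cows were left out in turn and did not pass without P1541 (0.79), P617 (0.79), NP2541 (0.76), NP2810 (0.82) or NP856 (0.85). With the leukocyte covariate the log2 fold change was 0.78 for CXCL16 and 0.15 for CXCR6, and without P617 and P1541 it was 0.87 and 0.58, none of which passed.

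CXCL17 (ENSBTAG00000018652) is a chemokine of mucosal epithelia associated with macrophages and dendritic cells, and it was higher in P. The P cows ranged from 53.4 (P2396) through a median of 114 to 225 (P617). The NP cows had 93.3 (NP638), 67.4 (NP2541), 43.5 (NP238), 40.9 (NP856) and 13.3 (NP2810). The groups overlapped, since NP638 was above 3 of the 6 P cows. In limma the log2 fold change was -1.37 ± 0.51 (SE, unadjusted p = 0.0198, adjusted p = 0.509; exact permutation p = 0.0303), and it stayed under the threshold when any 1 cow was left out. It was -0.47 with the leukocyte covariate and -0.83 with the smooth muscle covariate, and neither passed. Whether the cellular make-up of the biopsies had a part in this difference was not tested beyond these fits.

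CXCL12, a stromal chemokine that retains and guides leukocytes and vascular cells through CXCR4 and is bound and cleared by CXCR7, did not pass. It was lowest at 1666 (P1631), had a median of 4893 and was highest at 13280.2 (P617) in the P cows, and lay between 1277 and 4667 in the NP cows. P617 and P1541 (10441) were the highest of the 11 cows and also had the highest smooth muscle marker sums. Its log2 fold change was -0.97 ± 0.54 (SE, exact p = 0.145), and it was -0.33 without these 2 cows and 0.03 with the smooth muscle covariate. CXCL12 came under the unadjusted threshold in edgeR (-1.17), in DESeq2 (-1.19) and in limma without P1631 (-1.28), but not in limma-voom (-0.96). CXCR4 was between 125 and 503 in P cows and between 263 and 523 in NP cows (log2 fold change 0.53, exact p = 0.175). CXCR7 was between 167 and 540.0 in P cows and between 376 and 475 in NP cows (log2 fold change 0.40, exact p = 0.143). The log2 fold change of CXCR7 passed the unadjusted limma threshold without P617 (0.55) and without P617 and P1541 (0.63). CXCL14, a chemokine of epithelia that is regulated by steroid hormones in the uterus, had a median of 240.3 in P cows and 228 in NP cows (log2 fold change 0.27, exact p = 0.574).

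Of 16 CC chemokines 10 were members. CCL5 and CCL14 were higher in NP and CCL21 was higher in P (30% of these members, beside 7.84% of all genes tested). CCL5 (ENSBTAG00000007191) is secreted by activated T cells and natural killer cells and attracts T cells, monocytes and eosinophils. It ranged from 49.4 (P1541) through a median of 109 to 198 (P904) in the P cows. In the NP cows it was 322 (NP2810), 185 (NP856), 181 (NP638), 143 (NP2541) and 138 (NP238). P904 was the only P cow within the NP range. CCL5 had a log2 fold change of 0.90 ± 0.35 (SE, unadjusted p = 0.0256, adjusted p = 0.535; exact permutation p = 0.0411), and it did not pass without P1541 (0.70), P1753 (0.77) or NP2810 (0.70). With the leukocyte covariate the log2 fold change was 0.16 and did not pass. CCR1, a receptor of CCL5, did not pass, with a log2 fold change of 0.63 (exact p = 0.147).

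CCL14 (ENSBTAG00000010738) attracts monocytes through CCR1 and is present constitutively in several tissues. Its normalized count ranged from 342 (P2396) through a median of 500.3 to 797 (P904) in the P cows. The NP cows had 1184 (NP2541), 1056 (NP2810), 886 (NP638), 712 (NP856) and 447 (NP238). The groups overlapped, since NP238 lay below 5 of the 6 P cows and P904 lay above NP238 and NP856. For CCL14 the log2 fold change was 0.66 ± 0.26 (SE, unadjusted p = 0.0273, adjusted p = 0.549; exact permutation p = 0.0541), and it did not pass without P2396 (0.54), NP2541 (0.52), NP2810 (0.57) or NP638 (0.63).

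CCL21 (ENSBTAG00000010161) is made by lymphatic endothelium and brings dendritic cells and naive T cells to lymph vessels and nodes through CCR7. The P cows ranged from 143 (P617) through a median of 210.1 to 1676 (P1541). The NP cows had 349 (NP638), 179 (NP2541), 55.9 (NP856), 34.4 (NP238) and 22.4 (NP2810). P1541 was 4.80 times the next cow, and NP638 and NP2541 lay within the P range. For CCL21 the log2 fold change was -1.88 ± 0.79 (SE, unadjusted p = 0.0349, adjusted p = 0.588; exact permutation p = 0.0693). It did not pass without P1541 (-1.38), P1753 (-1.83), NP238 (-1.60), NP2810 (-1.45) or NP856 (-1.77), nor in edgeR (-1.82) and limma-voom (-1.84). In DESeq2 (-1.84) it came under the unadjusted threshold. With the leukocyte covariate it was -0.37 and with the smooth muscle covariate -0.80, and neither passed. Without P617, P1541 and NP638, the 3 cows with the most smooth muscle, it was -2.04 and passed. CCL21 was itself 1 of the 4 lymphatic endothelial markers tested, and none of the other 3 passed in either direction. LYVE1, a hyaluronan receptor of lymphatic vessels, had a log2 fold change of 0.53 (adjusted p = 0.811), PROX1 of -0.02 and PDPN of 0.006. The receptor CCR7 (log2 fold change 0.19, exact p = 0.749) and its other ligand CCL19 (0.17, exact p = 0.883) did not pass, and without P617 and P1541 CCL19 had a log2 fold change of 1.41 and passed the limma threshold.

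CCL11 (eotaxin) and CCL2, which attract eosinophils and monocytes respectively, had negative log2 fold changes that did not pass. CCL11 had the largest standard error of the 70 members. It was lowest at 36.5 (P1631), had a median of 107 and reached 1640.2 (P617) in the P cows, and was 346 (NP638), 133 (NP2541), 14.0 (NP856), 5.10 (NP2810) and 5.06 (NP238) in the NP cows. In both groups its highest cow was the one with the highest smooth muscle marker sum, P617 and NP638. CCL11 had a log2 fold change of -2.43 ± 1.32 (SE, exact p = 0.139), and it was 0.15 with the smooth muscle covariate. CCL2 was highest in P617 (61.0) and between 3.92 and 22.2 in the other cows (log2 fold change -0.97, exact p = 0.108), and its receptor CCR2 had a log2 fold change of 0.87 (exact p = 0.18). Of the other CC chemokines, CCL28, which draws antibody-secreting cells to mucosae through CCR10, was highest in P1631 (119) and had a log2 fold change of -0.54 (exact p = 0.316), with -0.54 for CCR10 (exact p = 0.197).

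**Figure D4:**
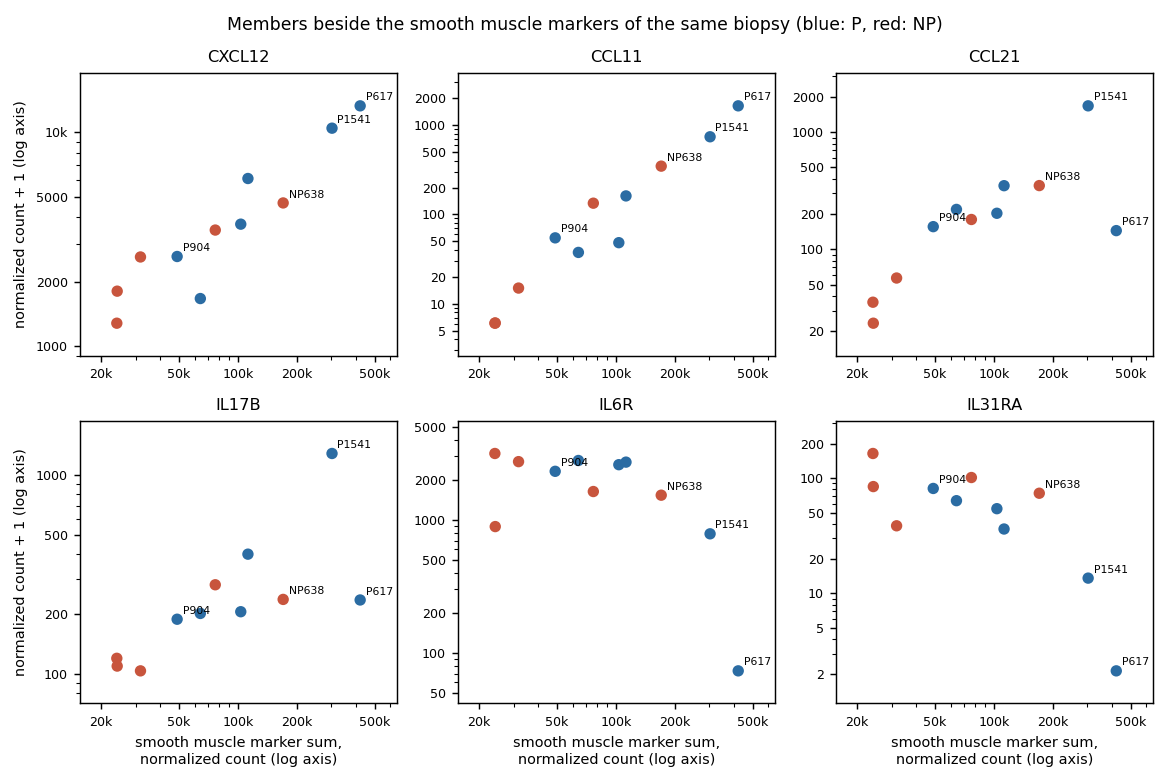
Normalized count + 1 of CXCL12, CCL11, CCL21, IL17B, IL6R and IL31RA against the summed normalized count of the smooth muscle markers in the same biopsy, both on log axes, with 1 point per cow (P in blue, NP in red). P617 and P1541, at the right of each panel, are the 2 highest for CXCL12 and CCL11 and the 2 lowest for IL6R and IL31RA.

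Of 17 chemokine receptors 10 were members. CXCR6 was the only one under the unadjusted threshold (10% of these members, beside 7.84% of all genes tested). The log2 fold change was above 0 in 7 of 10 and ranged from -0.54 (CCR10) to 0.93 (CXCR6). CCR8, a receptor of regulatory T cells, ranged from 3.87 to 47.3 in P cows and from 1.02 to 72.9 in NP cows, so that its spread within each group exceeded the difference between them (log2 fold change -0.26, exact p = 0.792).

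Of 39 interleukin ligands 13 were members, and IL12A alone passed the unadjusted threshold (7.69% of these members, beside 7.84% of all genes tested). IL12A (ENSBTAG00000015150) encodes the smaller subunit of IL-12, which promotes interferon gamma production, and of the regulatory cytokine IL-35. It was 0 in P2396, 1.13 in P617, 1.14 in P1631, 2.01 in P1753, 5.81 in P1541 and 9.58 in P904. In the NP cows it was 17.3 (NP2810), 13.2 (NP638), 7.84 (NP2541), 7.53 (NP856) and 3.03 (NP238). The groups overlapped through P904, P1541 and NP238, and the values rest on few reads. The gene reached the minimum mean through the NP cows, which favoured this direction. For IL12A the log2 fold change was 1.60 ± 0.65 (SE, unadjusted p = 0.0306, adjusted p = 0.564; exact permutation p = 0.0390). It did not pass without P1631 (1.48), P2396 (1.26), NP2810 (1.36) or NP638 (1.45), nor in the count tests of edgeR (1.54) and DESeq2 (1.57). The partner subunit IL12B had at most 3 reads in every cow. The receptor chain IL12RB1 was at 18.3 in NP856, at 7.14 to 9.41 in the other NP cows and between 3.02 and 11.5 in P cows (log2 fold change 0.80, exact permutation p = 0.0390, although it did not pass in limma).

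IL17B, a cytokine of the IL-17 family that binds IL17RB, had the next smallest p-value among the ligands. It was lowest at 187 (P904), had a median of 219 and was highest at 1284 (P1541) in the P cows, and lay between 102 and 279 in the NP cows. P1541 was over 3 times above any other cow. The log2 fold change was -1.01 ± 0.50 (SE, exact p = 0.0758) and -0.61 without P617 and P1541. IL17B came under the unadjusted threshold in the count tests of edgeR (-1.30) and DESeq2 (-1.31). In limma it did so without P904 (-1.16) or NP2541 (-1.23). The related IL17D had a log2 fold change of -0.37 (exact p = 0.398), and IL17RD, a receptor chain that modulates IL-17 and growth factor signals, 0.09 (exact p = 0.892). IL19, of the IL-10 family, was between 0.875 and 65.8 in P cows and had no read in NP238 and NP2810 (log2 fold change -1.56, exact p = 0.286).

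The interleukins of the IL-1 family did not pass. IL33, an alarmin stored in the nuclei of endothelial and epithelial cells, was between 120 and 326 in P cows and between 69.8 and 368 in NP cows (log2 fold change 0.03, exact p = 0.952). IL18 was between 38.4 and 86.8 in P cows and between 40.5 and 80.7 in NP cows (log2 fold change 0.24, exact p = 0.357), and its receptor chain IL18R1 had a log2 fold change of 0.94 (exact p = 0.143). IL1A and IL1B, the classical pyrogenic forms, had means of 6.29 and 6.92 in P cows and of 7.73 and 6.83 in NP cows (log2 fold changes 0.56 and 0.37). Their signalling receptor IL1R1 was between 130 and 422 in P cows and between 288 and 452 in NP cows (log2 fold change 0.54 ± 0.29, SE, exact p = 0.121), and without P617 and P1541 the log2 fold change was 0.17. IL15, which sustains natural killer cells, had a log2 fold change of -0.25 (exact p = 0.658), and IL34, a ligand of CSF1R, 0.17 (exact p = 0.729).

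Of 39 interleukin receptors and inhibitors 26 were members, and IL7R and IL2RA passed, both higher in NP. They were 7.69% of these members, beside 7.84% of all genes tested. IL7R (ENSBTAG00000019975) is the receptor chain for IL-7 on T cells and innate lymphoid cells and also serves TSLP. In the P cows it was 0.968 (P1541), 1.14 (P1631), 1.92 (P904), 3.50 (P2396), 5.65 (P617) and 8.05 (P1753). In the NP cows it was 23.5 (NP2541), 22.2 (NP238), 14.0 (NP856), 7.10 (NP638) and 6.12 (NP2810). The groups overlapped through P1753 alone. The means were 3.54 ± 2.82 (SD, n = 6) in P and 14.6 ± 8.17 (SD, n = 5) in NP, and the log2 fold change was 1.83 ± 0.54 (SE, limma, p = 0.00569, adjusted p = 0.369; exact permutation p = 0.0152). It passed when any 1 cow was left out, with log2 fold changes from 1.62 to 2.08, and was 1.92 with the leukocyte covariate. IL7R reached the minimum mean through the NP cows, which favoured this direction in all of these fits. For IL7R, as for CXCL3, the direction is not independent of the calls that the study made on these cows. Its ligand IL7 had a mean under 5.

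IL2RA (ENSBTAG00000020892), the chain that gives the IL-2 receptor its high affinity on activated and regulatory T cells, was 0.968 (P1541), 3.39 (P617), 3.50 (P2396), 4.57 (P1631), 5.03 (P1753) and 7.66 (P904) in the P cows. It was 25.1 (NP2541), 11.2 (NP2810), 8.09 (NP238), 7.10 (NP638) and 6.45 (NP856) in the NP cows. P904 was the only P cow within the NP range. IL2RA had a log2 fold change of 1.24 ± 0.48 (SE, unadjusted p = 0.0239, adjusted p = 0.522; exact permutation p = 0.0108). It was 0.93 without NP2541 and 0.72 with the leukocyte covariate, and neither passed. IL2RA too reached the minimum mean through the NP cows, which favoured this direction. Neither of the other chains of the receptor passed, with log2 fold changes of -0.25 for IL2RB (exact p = 0.26) and 0.23 for IL2RG (exact p = 0.331). IL2 itself had no read in any cow.

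**Figure D5:**
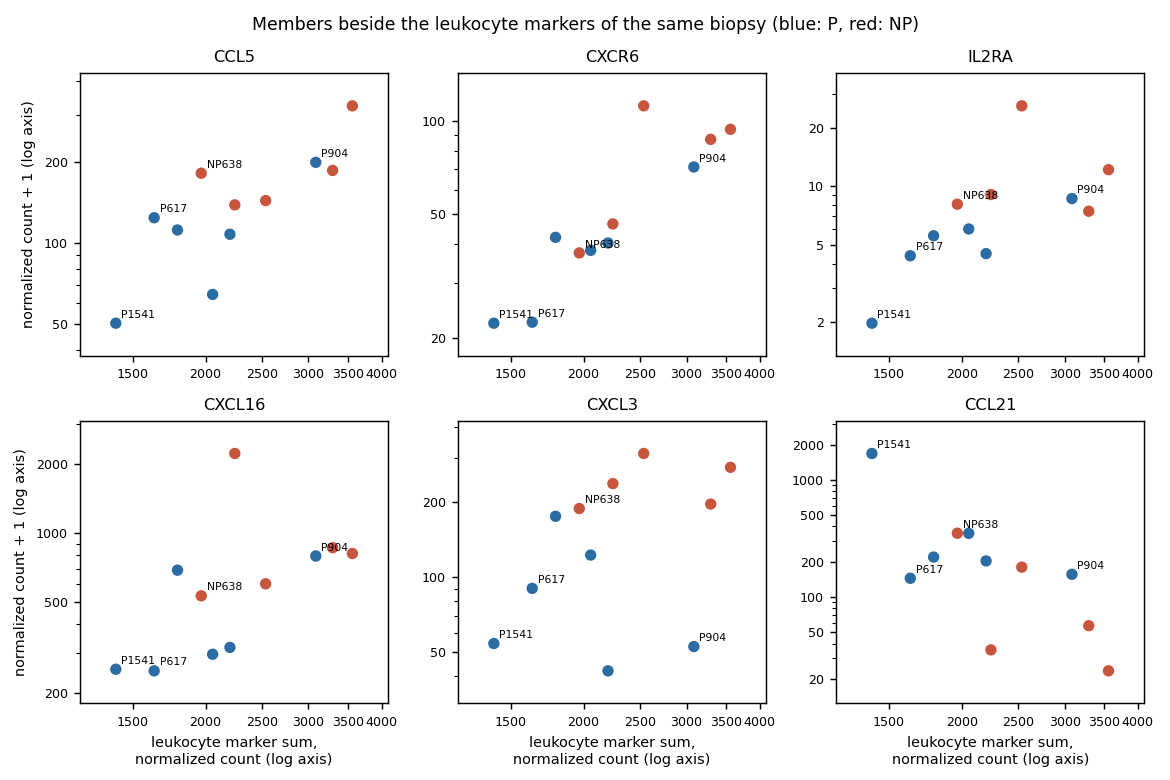
Normalized count + 1 of CCL5, CXCR6, IL2RA, CXCL16, CXCL3 and CCL21 against the summed normalized count of the leukocyte markers in the same biopsy, both on log axes, with 1 point per cow (P in blue, NP in red). P1541, with the lowest leukocyte sum (1404), has the lowest CCL5, CXCR6 and IL2RA and the highest CCL21. For CXCL3, P904 lies below all NP cows, and its leukocyte sum (3088) is above that of 3 of them. The part of leukocytes in these levels was not tested beyond the fit with the covariate.

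The receptors of the IL-6 family signal through IL6ST (gp130), the chain shared with LIF, oncostatin M and IL-11. IL6R was at 72.3 in P617 and at 785 in P1541, between 2318 and 2796 in the other P cows, and between 890 and 3157 in the NP cows. P617 was over 10 times below every other cow. The log2 fold change was 0.62 ± 0.87 (SE, exact p = 0.701), and it was -0.53 without P617 and P1541, so that its sign turned with these cows. IL6ST was between 1251 and 3925 in P cows and between 1926 and 3252 in NP cows (log2 fold change 0.12, exact p = 0.708), and IL11RA had a log2 fold change of -0.04 (exact p = 0.931). IL31RA, a receptor chain related to gp130 that binds IL-31, was 1.13 in P617 and 12.6 in P1541, between 35.2 and 80.5 in the other P cows and between 37.6 and 163 in the NP cows. Its log2 fold change was 1.69 ± 0.85 (SE, exact p = 0.0866) and 0.56 without P617 and P1541. Both genes of IL6, the ligand, had at most 3 reads in every cow.

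The 53 genes of the family with a mean under 5 had few or no reads. For 14 of them there was no read in any cow, which at the summed depth of the 11 cows allows a share of up to 2.39e-06% of the reads, counting error only. Among these were IL2, IL3, IL9, IL21 and IL22, cytokines of helper T cells, IL17A and IL17F of Th17 cells, IL20, IL36B, IL36G and IL37. A further 20 had at most 3 reads in every cow, among them IL4, IL11, IL12B, IL6, CCL17, CCL20, CXCR5, IL22RA1 and IL23R. The remaining 19, among them CCL3, IL8, IL21R, IL1R2 and IL1RL1, had more than 3 reads in at least 1 cow. Of the cytokines that define helper T cell classes, IL4, IL17A, IL17F, IL21 and IL22 thus had at most 3 reads in any cow. IL13 and IL10, also below the minimum mean, had up to 4 reads (NP2810) and up to 6 reads (NP856). Interferon gamma lies outside the name rule and was not examined. Some receptor chains for IL4, IL17A, IL17F, IL21 and IL22 (IL2RG, IL4R, IL17RA) were members, and others (IL21R, IL22RA1) were not.

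Genes that act with the members were counted as lists. Of the chemokine genes outside the name rule 10 of 18 were tested, and RARRES2, the ligand chemerin, was higher in NP (log2 fold change 0.54, adjusted p = 0.563). Of the other cytokines and receptors of these families 20 of 28 were tested, and LIFR, CSF1R and OSMR were higher in NP. LIFR, which pairs with gp130 to bind LIF, had 103 to 264 normalized counts in P cows and 272 to 499 in NP cows, so that the groups did not overlap (log2 fold change 0.88, adjusted p = 0.459). OSMR, which pairs with gp130 to bind oncostatin M, had a log2 fold change of 0.47 (adjusted p = 0.514) and CSF1R, the receptor of IL34 and CSF1, 1.07 (adjusted p = 0.406). Of 22 JAK, STAT and SOCS genes tested 0 passed in limma in either direction, with log2 fold changes from -0.36 to 0.68. Of 24 genes of IL-1 and NF-kappaB signalling, BCL3 (log2 fold change 0.49) and NFKBIA (0.51) were higher in NP. The shares passing in these 4 lists, in this order, were 10%, 15%, 0% and 8.33%, beside 7.84% of all genes tested. None of the genes in these 4 lists had an adjusted p-value under 0.1 in limma.

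Markers of several cell types that carry these receptors were also higher in NP. At an unadjusted p-value under 0.05, 7 of 9 monocyte and macrophage markers were higher in NP, CSF1R among them, as were 3 of 14 T cell and natural killer cell markers, 9 of 10 endothelial markers and 3 of 9 stromal markers, with 0 higher in P in these 4 lists. The macrophage sum ranged from 577 to 1204 in P cows and from 885 to 2567 in NP cows, and the T cell and natural killer cell sum from 472 to 1289 and from 672 to 1480.1. Of 12 epithelial markers KRT7 was higher in P, and 0 of 3 mast cell markers passed in limma. At that threshold 5.49% of all genes tested were higher in NP and 2.35% higher in P. Several markers stand in more than 1 list, as CD5 and CD6 do in the leukocyte list and the T cell list. The part of these cells in the differences of the members was not tested beyond the fits with a covariate given above.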

How the data were processed

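After quality filtering with Seqyclean, the authors aligned the read pairs locally to the repeat-masked UMD3.1 assembly of Bos taurus with Bowtie2 2.1.0. Reads per gene came from HTSeq 0.5.4p2 and were scaled by the size factors of DESeq2 1.12.1. CASAVA 1.8.2 is also named in the submitters' processing notes. The annotation and the use of strand are not given in the sources used here. These scaled counts (unit: signal, not below 0) are what the authors deposited for 6 P and 5 NP cows, and 1 NP library had been omitted by them. In each cow 100% of the values were whole multiples of 1 read within a tolerance of 0.001, so that whole reads could be recovered. Of the genes listed 5976 carried no symbol and could not be matched to the family. Sequences and coordinates were not used here.

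Genes whose mean reached 5 were compared on log2(normalized count + 1) with limma 3.58.1 (R 4.3.3, lmFit, eBayes with trend). This is a scale that understates changes of genes with few reads. The Benjamini-Hochberg adjustment covered all genes tested at 0.1, the study's threshold. Members called are those with an unadjusted p-value under 0.05. The 11 cows are separate animals. Alternatives were edgeR 4.0.16 (quasi-likelihood), DESeq2 1.42.0 (no independent filtering) and limma-voom on the recovered reads, TMM and upper-quartile scaling, a mean of at least 20 or none, pseudocounts of 0.5 and 4, covariates, and cows left out. The functions were tested on simulated data. Levels are compared between cows and not between genes, since transcript lengths were not used.

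Named are members called, without overlap or called by DESeq2, the 3 with the highest mean and the 3 with the largest fold change in each role, those in which 1 cow exceeded the others by more than 3 times, ligand and receptor pairs and paralogs. CCR8, IL2RG and the genes in the paragraph on other observations were chosen after their values were seen. The members and lists were chosen with earlier results of these data known. The values of 1 member are not reported here.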

Additional observations from a re-analysis of the deposited data

Results flagged for a closer look

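In 96 groups of cows, 48 named members in P and in NP, the highest and lowest cow were compared with the rest by the gap to the nearest cow as a share of the group's range, on the log2(normalized count + 1) scale. With Dixon's 95% critical values chance flags about 1 in 20 groups, and 3 were flagged. CCL21 in P cows was flagged for P1541, at 1676 normalized counts beside 143 to 348 in the other P cows (gap of 0.640 of the range). IL6R in P cows was flagged for P617, at 72.3 beside 785 to 2796 (0.651). IL12RB1 in NP cows was flagged for NP856, at 18.3 beside 7.14 to 9.41 (0.714). P1541 and P617 are the cows with the highest smooth muscle marker sums, and the part of smooth muscle in both values was not tested. The 2 cows differed for CCL21, which in P617 was the lowest of the P cows (143).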

How the results depend on the processing

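No fit reversed the sign of any of the 11 members called. The count of members with an unadjusted p-value under 0.05 was 7 with a mean of at least 20 (47 members then tested, 5 higher in NP), 3 with the leukocyte covariate and 6 with the smooth muscle covariate. Leaving out 1 cow in turn moved it between 6 (without NP2810) and 17 (without P904), and the cause was not tested. It stayed within 1.5 times of 11 in the other alternatives. Of the members under the threshold, 8 of 11 in edgeR, 8 of 12 in DESeq2 and 10 of 11 in limma-voom were higher in NP. With DESeq2 1 member (CXCL3) had an adjusted p-value under 0.1, and 0 did in every other alternative. The number of members whose groups did not overlap, 1 with all cows, was 1 to 4 when 1 cow was left out (4 without P904, beside 3.23% of all genes, and 1 or 2 without any other cow, beside 1.25% to 2.21%), 3 without P617 and P1541 (3.66%) and 3 without P617, P1541 and NP638 (5.03%), where fewer cows make overlap less likely. Of the 121 fits of the called members with 1 cow left out, 22 lost the unadjusted threshold. No scaling or test moved the median of all genes by more than 0.04. A gene with a mean near 5 rests on a few reads per cow, which limits CXCL13, IL7R, IL2RA and IL12A. No paired analysis was possible because each cow belonged to 1 group and nothing in the labels ties a P cow to an NP cow (the replicate numbers only name the cows).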

Other observations

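Some members outside the rule for named genes stood high in 1 cow. CCL25, a chemokine of the gut and thymus that binds CCR9, was at 413 normalized counts in NP2810 and at most 190 in any other cow, where CCR9 had at most 3 reads in every cow. IL16, a ligand of CD4, was at 258 in P617 and between 32.0 and 166 elsewhere. IL20RA was at 138 in P904, 2.57 times the next cow. IL12RB2 was at 54.2 in P617, and IL4R at 1001 in the same cow, 1.75 and 1.89 times the next cow. IL23A, the subunit that makes IL-23 with IL12B, ranged from 115 to 173 in P cows and from 108 to 162 in NP cows, with a log2 fold change of 0.07 and a standard error of 0.17.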
